A study of Pilatotrama ljubarskyi with 14 samples.

Results

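The response of a white-rot fungus to microcrystalline cellulose, relative to maltose, was taken over all genes with a value of at least 4 on the log2 scale in the cellulose or the maltose column of the deposited table. This held for 854 of the 878 genes in the table. Of these, 814 reached 4 in both columns, 21 in the cellulose column alone and 19 in the maltose column alone. A gene that entered through 1 column had to differ to some extent, and 13 of the 21 and 12 of the 19 were later called. Just inside the threshold, gene 978112 had a mean of 4.02 on cellulose and 3.75 on maltose, and gene 1056390 had 2.90 on cellulose and 4.16 on maltose. Just outside it, gene 941118 had 2.26 on cellulose and 3.91 on maltose, and gene 1039327 had 3.93 on cellulose and 3.99 on maltose. The sources used here do not say how the 878 genes were picked, and every share below refers to this table, not to the whole genome.

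The fungus was Trametes ljubarskyi (also named Pilatotrama ljubarskyi) strain BRFM1659, and every group was this 1 strain, grown for 3 days at 30 °C with shaking at 120 rpm. The cellulose cultures (3 libraries) held Avicel, a microcrystalline cellulose, at 15 g/l with maltose at 2.5 g/l. Wheat straw (3 libraries) and pine (2 libraries) were likewise given at 15 g/l with maltose at 2.5 g/l, and aspen (3 libraries) at 15 g/l with an amount of maltose that could not be read from its label. The maltose cultures (3 libraries) held maltose at 20 g/l and no solid. The cellulose comparison therefore changed the solid and the amount of soluble sugar at once, and their shares in any difference cannot be told apart. Yeast extract and diammonium tartrate were in all media. Whether the libraries stem from separate cultures is not stated in the labels, so the p-values measure the spread between these libraries, which may be technical.

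White-rot fungi are basidiomycetes that degrade the lignin as well as the polysaccharides of wood. Crystalline cellulose consists of packed glucose chains that are too large to enter the cell, and such fungi open it outside the cell with secreted cellulases, lytic polysaccharide monooxygenases and beta-glucosidases. Maltose is a soluble disaccharide of glucose that needs little such machinery, and in many fungi readily used sugars lower the expression of cellulase genes. Avicel is purified, whereas straw and wood carry their cellulose within hemicellulose and lignin. The table used here does not pair its gene numbers with names or functions, so no gene below is assigned to any of these enzymes, and the identity of the mycelium could not be checked by marker genes.

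The deposited values are the authors' means over libraries of log2(normalized reads + 1). Because the means carry 15 significant digits, the whole reads of each library could be recovered for 4113 of 4390 values (93.7%). Recovery reached 784 of 878 genes on cellulose and 824 of 878 on maltose. The recovered genes held 1333127 to 1531004 reads in a cellulose library and 1060830 to 1266667 in a maltose library. Libraries are called A, B and C within a substrate in order of falling depth, with no link to the labels' own replicate numbers. Pearson's r was taken across the 697 genes with reads in all libraries, which leaves out genes above level 14 on any substrate but pine. Genes are not independent replicates. Between cellulose libraries r was 0.979 to 0.988, and between a cellulose and a maltose library it was 0.710 to 0.750. Maltose library B stood apart, with r of 0.964 and 0.963 to maltose libraries A and C, which had 0.994 with each other.

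A gene was called where the limma adjusted p (Benjamini-Hochberg over 854 genes) was under 0.05 and the log2 difference was at least 1. On cellulose, 367 genes (43.0%) were called against maltose. They divided into 223 higher genes (26.1%) and 144 lower genes (16.9%), so 60.8% of the calls were rises. The rises reached much further than the falls: the 223 called rises had a median of 2.44 on the log2 scale and a maximum of 11.86, whereas the 144 called falls had a median of -1.71 and ended at -6.82. In bulk RNA from whole mycelium, a change in the number of cells that express a gene and a change in its RNA per cell cannot be told apart.

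The excess of rises depended on the scaling. After a median shift of each library, 208 genes were higher and 155 lower (57.3% rises). Quantile normalization, run on the 697 genes with reads in all libraries, gave 127 higher genes and 147 lower genes (46.4% rises), where the reported scaling gave 152 higher and 122 lower (55.5% rises) on the same genes. Without maltose library B, 227 of 800 tested genes were higher and 129 lower, against 220 and 126 on those genes with it. That library was the maltose library nearest to the cellulose mean in 150 of 346 called genes, library A in 103 and library C in 93.

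Most differences were small. Of the 854 genes, 484 lay within 1 of 0 and 287 within 0.5. The median difference was 0.10 and the mean 0.55, since the upper tail was long. The 75% quantile stood at 1.05, against -0.64 at the 25% quantile. The 90% quantile was 3.06, against -1.50 at the 10% quantile, and the 99% quantile was 10.13, against -4.76 at the 1% quantile. The distance from 0 at the 90% and 99% quantiles was thus larger above than below. Past a difference of 1 in size there were 223 rises and 147 falls, of which 3 falls were not called. At an adjusted p under 0.05 with no minimum difference, 607 genes differed.

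**Figure D1:**
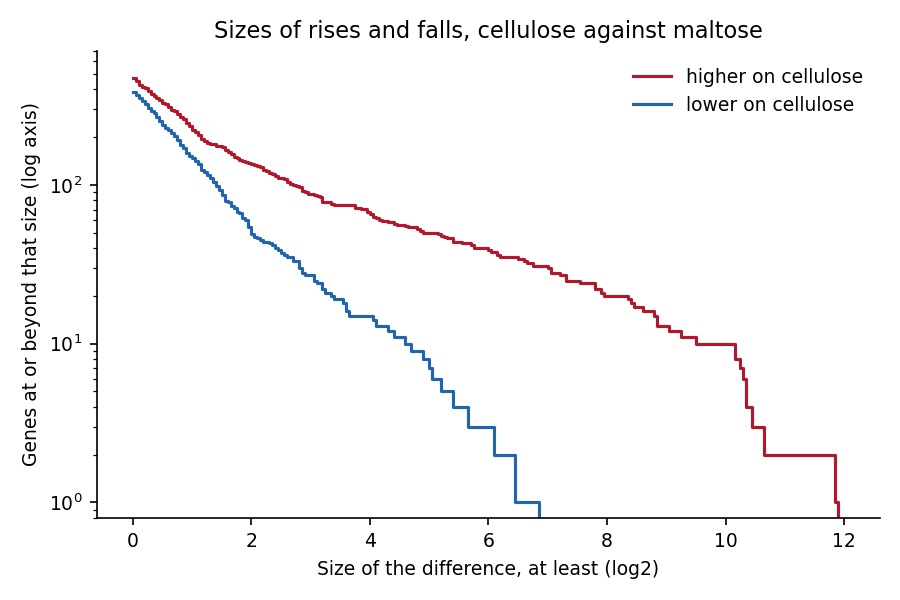
Number of genes (log axis) whose cellulose minus maltose difference reached at least the size on the x axis (log2 of normalized reads + 1), drawn separately for genes higher and lower on cellulose. The curves part as size grows: 135 rises and 49 falls reached 2, 66 rises and 15 falls reached 4, and 20 rises and no fall reached 8.

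The plot of genes beyond a given size shows the 2 directions parting from the start. At a size of 0.5 there were 329 rises and 238 falls, and at 3 there were 88 rises and 27 falls. At 5 the numbers were 50 rises and 7 falls, and at 6 they were 39 rises and 3 falls. Beyond 10 lay 10 rises. Among called rises the first quartile was 1.52, the third quartile 4.50 and the 90% quantile 7.79. Among called falls these values were 1.32, 2.53 and 3.89 in size.

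The 10 largest rises, with differences of 10.12 to 11.86, were genes that were low on maltose and among the high ones on cellulose. Their means ran from 12.09 to 18.19 on cellulose and from 1.78 to 7.56 on maltose. Back-transformed from the deposited means, they held 22.5% of the summed normalized reads of the 854 genes on cellulose, against 0.0251% on maltose. For 1 of the 10 the reads could be recovered on cellulose, and for the other 9 the spread on cellulose is not in the standard error. The 10 largest falls, from -4.66 to -6.82, had means of 0.92 to 7.50 on cellulose and 6.09 to 13.56 on maltose.

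Taken as shares of summed normalized reads, the called rises were a large part of what the table holds on cellulose. The 223 rises, chosen on this contrast, made up 63% of the reads on cellulose and 9% on maltose. The 20 rises of at least 8 made up 32.5% on cellulose and 0.0689% on maltose, and the 66 rises of at least 4 made up 46.3% on cellulose and 0.519% on maltose. The 144 falls held 4.2% of the reads on cellulose and 28.2% on maltose, and the 487 genes not called held 32.8% on cellulose and 62.8% on maltose. The 15 falls of at least 4 held 0.0305% on cellulose and 2.08% on maltose, so the largest falls concerned a small part of the reads on maltose. These shares rest on back-transformed means of logarithms and carry no error.

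Genes with recovered reads show the spread behind these differences. At levels of 11 to 14 recovery was less certain: a lone solution arose for 30 of 320 values shifted to have none. The cellulose reads of the next 2 genes lie in that range. Gene 971189 had 3371, 4471 and 7668 reads in the cellulose libraries and 3, 1 and 4 reads in the maltose libraries. No cellulose library came near any maltose library. The search admitted only libraries within 1 of the cellulose mean and within 6 of the maltose mean, which fixed this separation. With a mean of 12.09 on cellulose and 1.78 on maltose, the gene rose by 10.31 on the log2 scale (limma SE 0.35, adjusted p = 2.02e-11). With 8 instead of 1 added inside the logarithm the difference was 8.69. For the 8 reads on maltose in all, the depth-scaled ratio of 1731 had an exact 95% interval of 878 to 4011, which covers counting error only. Gene 1035491 had 5756, 10870 and 9781 reads on cellulose and 36, 44 and 23 on maltose, again with no overlap, as fixed by the same search limits. Its means of 12.89 on cellulose and 5.10 on maltose gave a rise of 7.79 (limma SE 0.25, adjusted p = 1.43e-11).

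The largest falls among such genes ended near or at the low end of the table. Gene 968537 had 5, 9 and 0 reads in the cellulose libraries and 341, 342 and 562 in the maltose libraries. All cellulose libraries lay far below all maltose libraries, and cellulose library C had no read at all. It fell by 6.82 (limma SE 0.73, adjusted p = 2.53e-06), by 5.89 without cellulose library C and by 7.47 without cellulose library B. With 8 instead of 1 added inside the logarithm it fell by 5.15. The 14 reads on cellulose against 1245 on maltose gave a depth-scaled level 99.6 times lower on cellulose, with an exact 95% interval of 59.1 to 183 for counting error alone. Gene 351956 had 129, 85 and 60 reads on cellulose and 7982, 5556 and 7093 on maltose. Its groups were equally far apart, with a mean of 6.30 on cellulose and 12.74 on maltose, and it fell by 6.43 (limma SE 0.22, adjusted p = 1.89e-11). The maltose reads of this gene lie in the less certain range of levels 11 to 14.

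**Figure D2:**
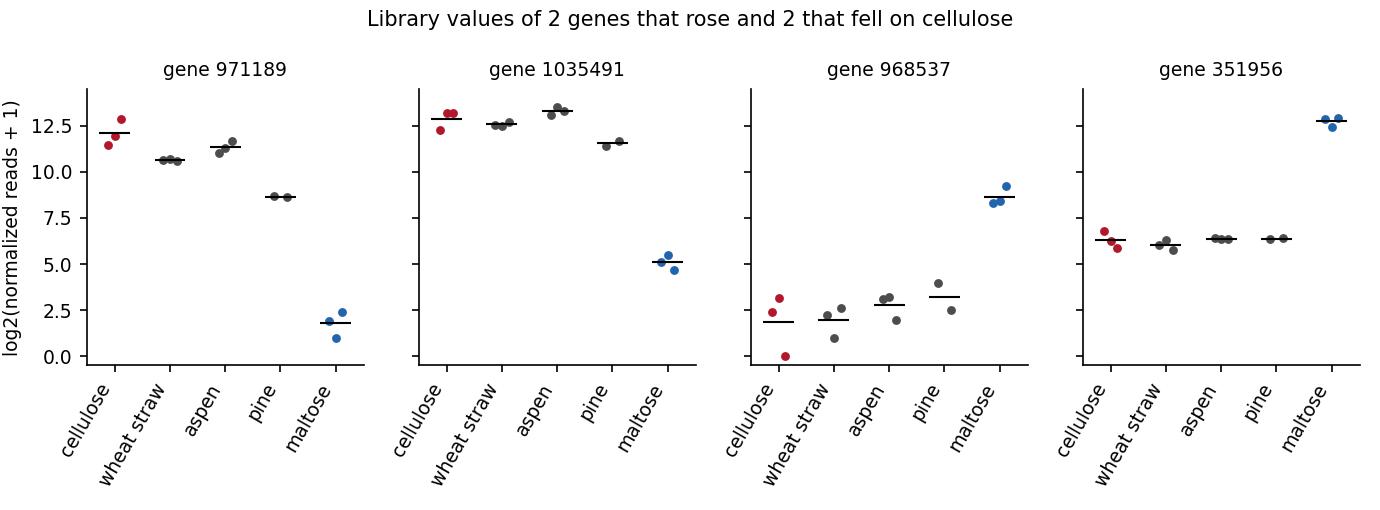
Values of single libraries (points, log2 of normalized reads + 1) and the deposited mean (line) on the 5 substrates for genes 971189 and 1035491, which rose on cellulose, and genes 968537 and 351956, which fell. On cellulose the means are 12.09, 12.89, 1.85 and 6.30, on maltose 1.78, 5.10, 8.66 and 12.74, and the points of wheat straw, aspen and pine lie on the cellulose side of maltose.

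In the plot of single libraries, the plant materials lay with cellulose and away from maltose for all 4 of these genes. Gene 351956 had means of 6.04 on wheat straw, 6.38 on aspen and 6.39 on pine. Gene 971189 had 10.64 on wheat straw, 11.34 on aspen and 8.65 on pine. It was higher on cellulose than on pine by 3.44 (SE 0.39; limma adjusted p = 1.03e-05) and than on wheat straw by 1.45 (SE 0.35; limma adjusted p = 5.07e-03), whereas its difference of 0.75 from aspen had an adjusted p of 7.67e-02 in limma. Without cellulose library A that difference was 1.06 (limma adjusted p = 2.51e-02), past the limit of a call.

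Of the 731 genes with reads in all 6 libraries, 39.8% were called, and in nearly all of these the groups did not overlap. Every cellulose library lay above every maltose library in 162 of 166 called rises, and below every maltose library in 123 of 125 called falls. At high levels the search admitted only a small spread between libraries, which favours such separation. The groups also did not overlap in 209 of 440 genes that were not called, at most 3 of which differed by 1 or more. Within a substrate, the median SD of a gene between libraries was 0.222 on cellulose and 0.242 on maltose, against 0.126 on wheat straw, 0.130 on aspen and 0.118 on pine. The fit pooled the spread of all substrates, so the plant libraries enter the standard errors of the cellulose minus maltose differences. With only the cellulose and maltose libraries fitted, the limma adjusted p was 3.66e-06 for gene 971189 and 2.77e-04 for gene 968537. In that fit 215 of 829 tested genes were higher and 138 lower.

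The response depended on the expression level, here the mean of the cellulose and maltose values. The share of called genes was 34.0% at a mean level of 4 to 6, 37.9% at 6 to 8, 43.1% at 8 to 10 and 51.4% at 10 to 12. It was lower above that, with 45.6% at 12 to 14 and 24.2% in the 33 genes at 14 and over. The share of rises followed this course, with 15.5%, 23.6%, 26.8%, 32.6%, 30.0% and 12.1% over the same 6 levels. The share of falls changed less, with 18.6%, 14.3%, 16.3%, 18.8%, 15.6% and 12.1%. Of the 16 genes with a mean level under 4, 4 were higher and 5 lower, and these had entered through 1 column.

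**Figure D3:**
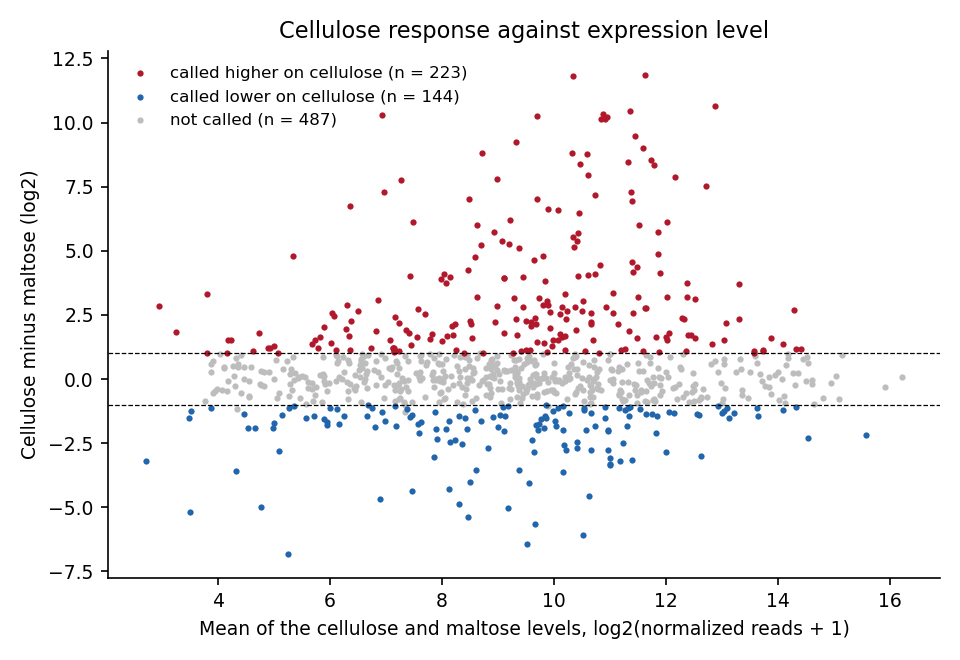
Cellulose minus maltose difference (log2) of each of the 854 genes against the mean of its cellulose and maltose levels (log2 of normalized reads + 1), coloured by whether the gene was called higher (223), called lower (144) or not called (487). Dashed lines mark a difference of 1 either way; rises of at least 4 gather at mean levels of 8 to 12 and are lacking above 14.

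The plot of difference against level shows where the large rises lay. Of the 66 rises of at least 4, 19 had a mean level of 8 to 10 and 36 a level of 10 to 12, and 4 lay at 12 to 14. The 90% quantile of the size of the difference was 1.80 at a level of 4 to 6, 4.14 at 8 to 10 and 6.01 at 10 to 12, but 1.35 at 14 and over. The median size varied less, from 0.65 at 4 to 6 to 1.07 at 10 to 12. The 15 falls of at least 4 stood lower, with 8 of them at a level of 8 to 10 and none at 12 or over. The median standard error of the difference narrowed from 0.26 at 4 to 6 to 0.14 at 14 and over, where it leaves out the cellulose or maltose libraries of all 33 genes.

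A difference and either of its terms are not independent, and the picture turns with the axis chosen. By the maltose level, the median difference was 0.31 at 4 to 6 and 0.61 at 6 to 8, and it was negative at 10 to 12 (-0.21), 12 to 14 (-0.53) and 14 and over (-0.31). The 21 genes under 4 on maltose (median 1.52) and the 19 under 4 on cellulose (median -1.38) had entered through the other column, which fixed their direction, and they are no part of this course. All 66 rises of at least 4 had a maltose level under 10, and no gene at 14 and over on maltose was called higher. By the cellulose level, the median difference was -0.07 at 4 to 6 and 1.91 in the 66 genes at 14 and over, of which 41 were called higher and 1 lower. Of the 66 rises of at least 4, 27 had a cellulose level of 14 and over and 22 a level of 12 to 14. The top of the table was correspondingly more crowded on cellulose, where 66 genes reached 14, against 30 on maltose, and the highest mean was 18.19 on cellulose and 16.68 on maltose.

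How much of the cellulose response was lacking on the plant materials was read from each material's own comparison with maltose and from direct contrasts with cellulose. All comparisons with maltose share the 3 maltose libraries, and all direct contrasts share the 3 cellulose libraries. Against maltose, 47.5% of all genes were called on wheat straw, 28.1% higher and 19.4% lower. On aspen 46.3% were called, 23.1% higher and 23.2% lower, and on pine 47.8%, 29.5% higher and 18.3% lower. Of the 223 rises on cellulose, 189 were also called higher on wheat straw, 148 on aspen and 171 on pine. Of the 144 falls, 118 were also called lower on wheat straw, 105 on aspen and 102 on pine.

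The median difference of the 223 rises was 2.44 on cellulose, 2.72 on wheat straw, 1.70 on aspen and 2.33 on pine, each relative to maltose. For the 144 falls it was -1.71 on cellulose, -1.86 on wheat straw, -1.92 on aspen and -1.77 on pine. Most called genes were also called the same way on at least 1 plant material. Of the rises, 137 (61.4%) were called the same way on all 3 plant materials, 39 on 2, 19 on 1 and 28 (12.6%) on none. Of the falls, 90 (62.5%) were called the same way on all 3, 18 on 2, 19 on 1 and 17 (11.8%) on none. The share of all 854 genes called the same way on all 3 was not taken. It cannot be above the lowest share of a single material, 23.1% for higher genes (aspen) and 18.3% for lower genes (pine). Because all these comparisons share the 3 maltose libraries, the overlap is given as a description.

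**Figure D4:**
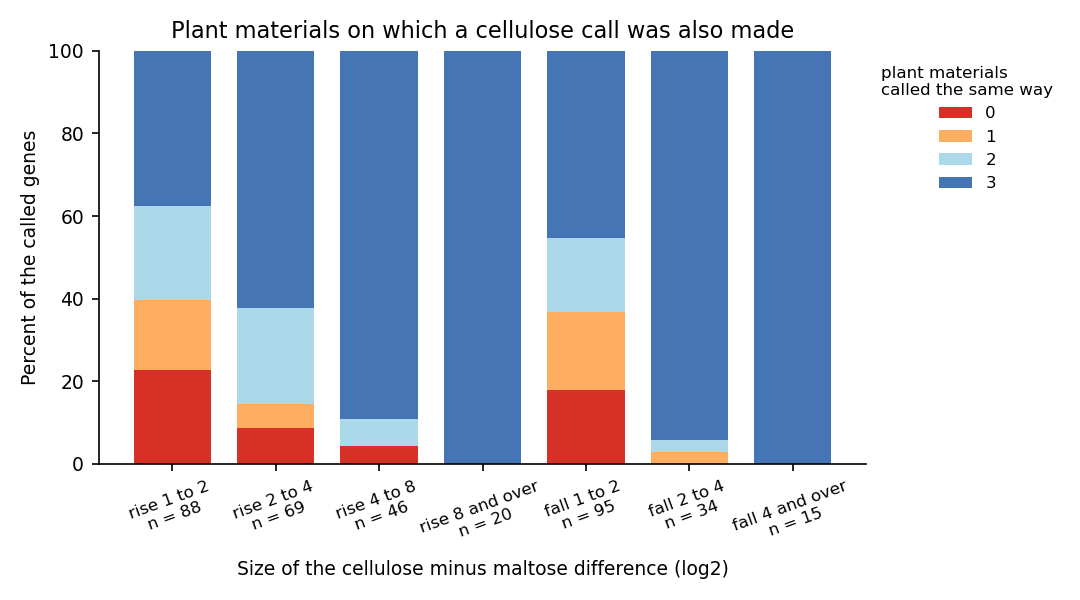
Percent of called genes (y axis) by the number of plant materials, 0 to 3, on which the same gene was also called the same way against maltose, in classes of the cellulose minus maltose difference (x axis, log2). Among rises of 1 to 2, 33 of 88 were called on all 3 plant materials and 20 on none, whereas all 20 rises of at least 8 and all 15 falls of at least 4 were called on all 3.

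The plot by size class shows that genes lacking a call on the plant materials were mostly those of small size on cellulose. In the 69 rises of 2 to 4, 43 were called on all 3 plant materials and 6 on none. In the 46 rises of 4 to 8 these numbers were 41 and 2. Among falls, 43 of 95 were called on all 3 and 17 on none at a size of 1 to 2, and 32 of 34 on all 3 and 0 on none at 2 to 4. A gene near the threshold on cellulose can lose its call by a small shift, so a missing call alone does not show a difference between substrates.

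Direct contrasts test that difference. Over all 854 genes, 20.7% were called against wheat straw, 12.2% higher on cellulose and 8.55% lower. Against aspen 34.3% were called, 24.8% higher on cellulose and 9.48% lower, and against pine 30.9%, 17.1% higher on cellulose and 13.8% lower. Of the 223 rises, 58 were higher on cellulose than on wheat straw, 104 than on aspen and 91 than on pine. In the other direction, 31 were higher on wheat straw than on cellulose, 18 on aspen and 30 on pine. Because the rises were chosen for high values in the same cellulose libraries, their larger share in the first direction is given as a description. For 69 rises (30.9%) and 68 falls (47.2%) no direct contrast was called, against 453 of all 854 genes (53%).

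Counting a rise as lacking on a material where its difference from maltose was under 1 and cellulose was called higher in the direct contrast, 15 of 223 rises (6.73%) were lacking on wheat straw, 50 (22.4%) on aspen and 34 (15.2%) on pine. For falls, the same count gave 10 of 144 (6.94%) on wheat straw, 20 (13.9%) on aspen and 23 (16%) on pine. Wheat straw had the fewest and aspen had the most rises of this kind, and the amount of maltose in the aspen medium could not be read. Direct calls over all 854 genes ran in the same order. Cellulose was called higher in 12.2% against wheat straw, 24.8% against aspen and 17.1% against pine. It was called lower in 8.55%, 9.48% and 13.8%. The order of the materials is thus not particular to the rises and falls.

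By the same criterion on all 3 plant materials at once, 14 rises (6.28% of 223) and 5 falls (3.47% of 144) were absent on the plant materials. Another 14 rises and 12 falls differed from maltose by under 1 on all 3, but were not called in each direct contrast. The 14 absent rises stood at 7.30 to 13.51 on cellulose, with a median of 12.22, and at a median of 8.67 on wheat straw, 8.22 on aspen, 8.14 on pine and 8.48 on maltose. Their differences between cellulose and maltose were 1.11 to 5.68, with a median of 2.17. None of them was among the 20 rises of at least 8. On all 3 plant materials, 7 of the 14 lay below maltose, and 6 were called lower than on maltose on at least 1 of them.

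The 5 absent falls were of modest size, from -1.13 to -1.80, and stood at 5.06 to 6.80 on cellulose and 6.56 to 8.48 on maltose. Their medians were 5.43 on cellulose, 8.40 on wheat straw, 7.32 on aspen, 8.74 on pine and 6.86 on maltose. All 5 lay above maltose on all 3 plant materials, and all 5 were called higher than on maltose on at least 1.

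**Figure D5:**
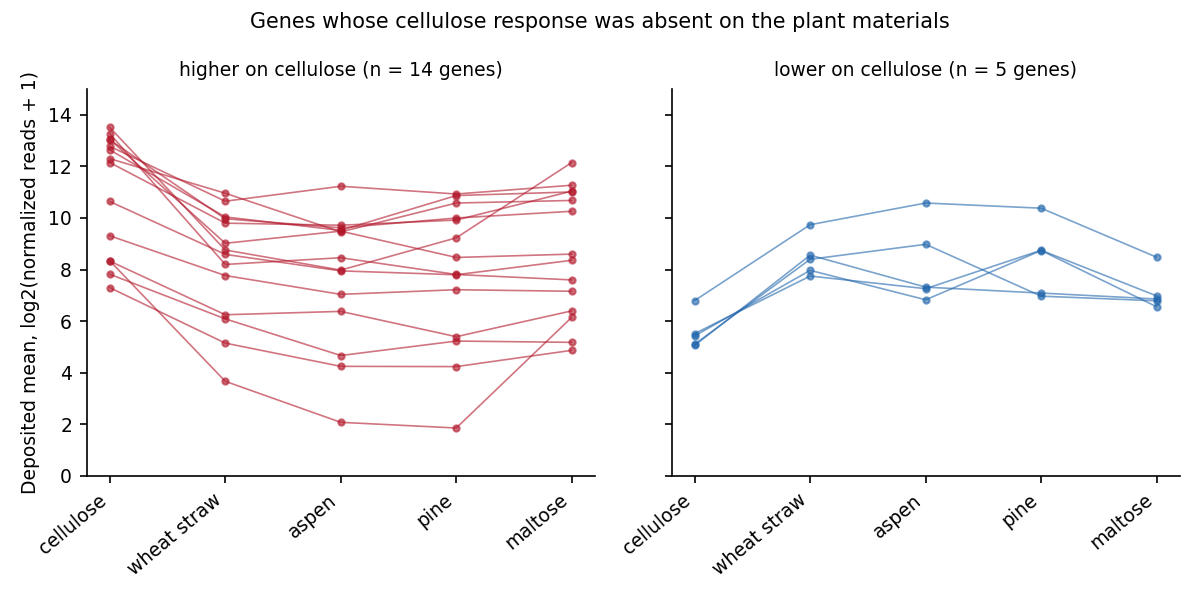
Deposited means (log2 of normalized reads + 1) on the 5 substrates, 1 line per gene, for the 14 rises (left) and 5 falls (right) on cellulose that were absent on the plant materials. The rises stand at 7.30 to 13.51 on cellulose and drop on the plant materials to about the maltose level or below it, and the falls stand at 5.06 to 6.80 on cellulose, below their values on every other substrate.

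In the plot of the absent genes, gene 949716 had the largest difference from maltose and from wheat straw. It had 9767, 11646 and 11898 reads in the cellulose libraries, 353, 286 and 220 on wheat straw, 405, 387 and 402 on aspen, 207 and 148 on pine, and 204, 164 and 211 on maltose. The cellulose libraries were far above all others, and the wheat straw and aspen libraries lay slightly above the maltose libraries. Its mean was 13.27 on cellulose and 7.60 on maltose, a difference of 5.68 ± 0.15 (SE; limma adjusted p = 3.81e-12). Directly, cellulose exceeded wheat straw by 5.07 (limma adjusted p = 5.05e-11), aspen by 4.81 (limma adjusted p = 9.02e-11) and pine by 5.47 (limma adjusted p = 1.48e-10). Its differences from maltose were 0.60 on wheat straw (limma adjusted p = 2.89e-03), 0.87 on aspen (limma adjusted p = 1.94e-04) and 0.21 on pine (limma adjusted p = 2.76e-01). A response under 1 on wheat straw and aspen was thus present, and absent here means under that limit. The cellulose reads of this gene lie in the range of levels 11 to 14, where recovery was less certain. Libraries further than 0.5 from its cellulose mean were not searched, so its spread on cellulose was bounded by the search.

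Gene 872085 was raised on cellulose and lowered on the plant materials. It had 342, 373 and 369 reads on cellulose, 12, 9 and 13 on wheat straw, 3, 4 and 4 on aspen, 4 and 1 on pine, and 91, 35 and 105 on maltose. Maltose library B was the lowest of its group, and no library of another substrate reached the cellulose libraries. The gene rose by 2.20 ± 0.41 on cellulose against maltose (SE; limma adjusted p = 3.17e-04), and by 1.71 without maltose library B. Against maltose it fell by 2.48 on wheat straw (limma adjusted p = 1.04e-04), by 4.06 on aspen (limma adjusted p = 9.96e-07) and by 4.28 on pine (limma adjusted p = 2.13e-06). With 8 added inside the logarithm it fell by 2.80 on aspen and by 2.87 on pine. Cellulose thus stood above wheat straw by 4.67 (limma adjusted p = 1.23e-06), above aspen by 6.26 (limma adjusted p = 5.15e-08) and above pine by 6.48 (limma adjusted p = 1.41e-07). With so few plant reads these sizes lean on the 1 added inside the logarithm, and with 8 added they were 4.06, 4.88 and 4.94 on the same materials.

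Among the absent falls, gene 966852 moved to opposite sides of maltose. It had 125, 124 and 120 reads on cellulose, 974, 1043 and 540 on wheat straw, 2014, 1391 and 1866 on aspen, 1003 and 1081 on pine, and 445, 225 and 442 on maltose. The cellulose libraries were the lowest and close to each other, and the plant libraries were all above the maltose libraries. It fell by 1.68 on cellulose (SE 0.26; limma adjusted p = 6.16e-05), and by 2.00 without maltose library B. Against maltose it rose by 1.26 on wheat straw (limma adjusted p = 5.85e-04), by 2.11 on aspen (limma adjusted p = 6.88e-06) and by 1.90 on pine (limma adjusted p = 5.47e-05). The difference on wheat straw was 0.94 without maltose library B and 0.92 after quantile normalization, under the limit of 1 for a call.

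Gene 795320 had 45, 28 and 37 reads on cellulose, 439, 346 and 306 on wheat straw, 167, 192 and 182 on aspen, 99 and 114 on pine, and 108, 145 and 96 on maltose. Cellulose was again below all other libraries, whereas wheat straw was above them. The gene fell by 1.80 on cellulose (SE 0.24; limma adjusted p = 1.88e-05) and rose by 1.70 on wheat straw (limma adjusted p = 2.55e-05), both against maltose. On aspen its difference from maltose was 0.46 (limma adjusted p = 9.42e-02), and on pine 0.23 (limma adjusted p = 4.44e-01).

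In all, 8 rises on cellulose (3.59%) and 9 falls (6.25%) were called in the opposite direction against maltose on at least 1 plant material. Over all 854 genes, 19.4% were called lower than on maltose on wheat straw, 23.2% on aspen and 18.3% on pine. Called higher were 28.1% on wheat straw, 23.1% on aspen and 29.5% on pine. Opposite calls on at least 1 material were less common than calls of that direction on any single material among all genes. The rises and falls were chosen with the same maltose libraries, which works against opposite calls, so this order is given as a description. Genes 872085, 966852 and 795320 belong to the genes called in the opposite direction. So does gene 961010, with 358, 429 and 296 reads on cellulose, 79, 79 and 60 on wheat straw, 98, 86 and 96 on aspen, 40 and 26 on pine, and 58, 165 and 60 on maltose. Maltose library B was far above the other maltose libraries and still below all cellulose libraries. The gene rose by 1.92 ± 0.31 on cellulose (SE; limma adjusted p = 1.11e-04), and by 2.42 without maltose library B. It fell by 1.01 on pine (SE 0.35; limma adjusted p = 2.00e-02), and its differences were -0.15 on wheat straw and -0.02 on aspen. The call on pine was lost without maltose library B, where the difference was -0.51, and without pine library A (limma adjusted p = 7.03e-02) or B (limma adjusted p = 8.66e-02). It was also lost with the pine and maltose libraries fitted alone (limma adjusted p = 1.04e-01) and with 8 added inside the logarithm (-0.91).

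A larger group of rises was present on the plant materials but reached further on cellulose. Of the 223 rises, 51 (22.9%) were called higher on cellulose than on each of the 3 plant materials, against 78 of all 854 genes (9.13%), and 37 of the 51 were not absent on the plant materials. By size, the 51 were 6 of the 88 rises of 1 to 2, 9 of the 69 of 2 to 4, 18 of the 46 of 4 to 8 and 18 of the 20 of at least 8. Absent on the plant materials were all 6 of the first class, 6 of the 9, 2 of the 18 of 4 to 8 and 0 of those of at least 8. For 30 of the 51, among them all 18 of at least 8 and 12 of those of 4 to 8, no cellulose reads were recovered, so their standard errors leave out the spread on cellulose, where libraries varied more than on the plant materials. Among the 167 rises with cellulose reads, 21 (12.6%) were higher on cellulose than on each plant material, against 43 of all 760 genes with such reads (5.66%). Absent rises made up 13 of these 21, so few rises present on the plant materials had a measured spread on cellulose. On the 697 genes recovered in every library the count was also 21, with 13 of them absent. After quantile normalization it was 18, with 14 of them absent. In the 20 rises of at least 8, the median level was 15.97 on cellulose, 12.95 on wheat straw, 13.14 on aspen, 11.09 on pine and 5.89 on maltose. Their median difference from maltose was 9.80 on cellulose, 7.36 on wheat straw, 7.63 on aspen and 5.72 on pine. The size classes were cut on the cellulose difference, so a smaller value on other substrates is in part set by the choice of genes. Their share of the summed normalized reads was 32.5% on cellulose, 11.3% on wheat straw, 14.3% on aspen, 3.91% on pine and 0.0689% on maltose.

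The converse was rarer among rises, as it was over all genes (33 against 78). The rises were chosen for high values in the same cellulose libraries, so this order is given as a description. All 3 plant materials were called higher than cellulose in 14 of the 223 rises (6.28%), against 33 of all 854 genes (3.86%). These were 5 rises of 1 to 2, 8 of 2 to 4 and 1 of 4 to 8. In the 88 rises of 1 to 2 the median difference from maltose was 1.37 on cellulose, 1.41 on wheat straw, 0.82 on aspen and 1.20 on pine, and 45 of the 88 had no direct call. The 157 called rises under 4 together held 16.7% of the reads on cellulose, 29.9% on wheat straw, 22.7% on aspen, 28.6% on pine and 8.48% on maltose.

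The larger falls, of which 32 of 34 at 2 to 4 and 15 of 15 at 4 and over were called on all 3 plant materials, are described by their medians. In the 15 falls of at least 4 the median level was 5.99 on cellulose, 5.62 on wheat straw, 5.87 on aspen, 6.61 on pine and 10.75 on maltose, and 10 of the 15 had no direct call. Their median difference from maltose was -4.98 on cellulose, -5.46 on wheat straw, -5.28 on aspen and -4.22 on pine. In the 34 falls of 2 to 4 it was -2.77 on cellulose, -3.39 on wheat straw, -3.29 on aspen and -2.81 on pine. Over all 854 genes, cellulose was called lower than all 3 plant materials in 33 (3.86%) and higher than all 3 in 78 (9.13%). Cellulose was called lower than all 3 plant materials in 7 of the 144 falls (4.86%), 5 of which were the absent ones. That count was 4 without cellulose library C, without wheat straw library A or without wheat straw library C, and also 4 with only the compared libraries in each fit. Conversely, all 3 plant materials were called lower than cellulose in 12 of the 144 falls (8.33%). The first share was thus slightly above that of all genes and the second slightly below it.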

How the data were processed

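PolyA RNA of mycelium was sequenced in 14 libraries, grouped here by the substrate in their labels. The deposited table holds, per the file headers, log2 normalized read counts, 1 column per substrate, by gene number. TopHat2, HTSeq and DESeq 1.5 were used by the authors, per the submitters' processing notes; the sources used here give no settings, genome build or rule of gene selection. The members and lists were chosen with earlier results of these data known.

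The deposited log2 values are means over libraries of log2(reads × factor + 1). Factors were found from the lowest values of each column. Each value up to level 14 (in pine, all) was then searched for the 1 set of whole reads that gives all 15 digits. Libraries could differ from the mean by 6 up to level 8 and in pine, 4 up to 10, 3 up to 11, 2 up to 12, 1 up to 13 and 0.5 up to 14, so genes of high level and large spread are left out. Of 4390 values 4113 were recovered, 175 were too high, 56 had several solutions and 46 none. Values shifted so that no solution should exist were searched too: a lone solution arose for 1 of 480 in pine or at levels up to 11, and for 30 of 320 at levels 11 to 14. On test values with a library SD of 0.3, 454 of 490 were solved rightly and 0 wrongly, and with an SD of 1.0, 348 of 469 rightly and 12 wrongly. Relative depth was 0.646 to 1.3; total library depth is unknown, and counting intervals cover counting error only.

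Differences are those of the deposited means; recovered libraries give the spread alone. A mean per substrate over 14 libraries was fitted with limma 3.58.1 (R 4.3.3), with empirical Bayes moderation and a mean-variance trend, in 7 two-sided contrasts adjusted separately. A substrate without recovered reads was assumed to vary like the others: 697 of 854 genes had all libraries. Of the called rises, 56 lacked the spread on cellulose and 3 that on maltose; of the called falls, 3 and 18 did. Recovery used Python 3.11.15, NumPy 2.4.6 and numba 0.67.0. Named genes are, by rule, 2 rises and 2 falls with recovered reads in each of 3 sets: all calls and genes called in the opposite direction on a plant material, ranked by the cellulose minus maltose difference, and absent genes, ranked by the smallest of their 3 differences between cellulose and a plant material. Genes with 3 or fewer reads over a group were passed over.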

Additional observations from a re-analysis of the deposited data

How the results depend on the processing

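None of 207 cellulose minus maltose values of 9 named genes changed direction or lost its call. Many of the settings, such as leaving out a plant library, cannot change these differences, only their standard errors and p-values. The 9 genes were also picked for large sizes, so this tally says little about other genes. Of 195 alternative counts, 177 stayed within 1.5 times the reported one, and the rest follow. Quantile normalization gave 127 rises against maltose (223 reported over 854 genes, 152 on the same 697) and 113 calls against wheat straw; genes recovered in every library gave 116 there (177 reported, 116 on the same genes). With no minimum difference there were 353 rises and 254 falls, and with a log2 difference of at least 2, 135 and 49. Absent rises and falls numbered 27 and 16 when 2 plant materials sufficed, 28 and 17 from deposited means alone, and 8 and 0 when the call against maltose had to reach 4-fold; with only the compared libraries in each fit, 3 absent falls were left. At a level of 10 or more, 102 rises and 59 falls of at least 1 were reported; by the cellulose level these were 156 and 32, by the maltose level 40 rises, and by the higher of both 156 rises.

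Leaving out 1 library gave 154 to 227 rises, 126 to 145 falls, 135 to 175 calls against wheat straw, 221 to 283 against aspen, 206 to 250 against pine, 13 to 17 absent rises and 4 to 6 absent falls, over fewer genes tested. With reads used up to level 11, an alternative chosen after seeing the data, 199 genes rose, 128 fell, and 14 and 5 were absent. No paired analysis was possible because the deposited columns carry no replicate numbers. Calls at high levels rest on less spread, since 175 values were too high to search.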

Other observations

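The 24 genes that reached 4 on neither cellulose nor maltose were not all low on the plant materials. Of them, 4 reached a level of 4 on wheat straw, 7 on aspen, 4 on pine, 9 on at least 1 of the 3 and 1 on all 3. That 1 gene had deposited means of 0.30 on cellulose, 9.32 on wheat straw, 8.51 on aspen, 6.93 on pine and 0.31 on maltose. It was singled out after its values were seen, and it is listed at near 0 on cellulose despite being well above that on each plant material. The next had 2.58 on cellulose, 3.50 on wheat straw, 6.74 on aspen, 7.75 on pine and 2.14 on maltose.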
